A study of Arabidopsis thaliana with 24 samples.

Results

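The genes of the chloroplast genome were described in Arabidopsis thaliana plants of the Col-0 wild type (WT) and the clf-28 mutant. They were taken as every entry of the deposited expression table whose gene name holds an identifier starting with ATCG, the chloroplast prefix. Of 34178 entries in the table, 94 met this rule, and they name 133 distinct identifiers, because 18 entries merge several neighbouring genes. A merged entry is counted once and is named here by its outer genes, so that rpoA-trnI stands for 12 identifiers between rpoA and trnI.

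The groups were WT and clf-28 roots and shoots at 2 weeks, grown on MS plates, and WT and clf-28 inflorescences and siliques (seed pods) at 5 weeks, grown in soil, all under long days. CLF encodes a Polycomb histone methyltransferase, and clf-28 is 1 mutant allele of it. The study asked which transcripts depend on CLF, with 3 labelled biological replicates per group. Strand-specific RNA-seq gave 1 FPKM value (fragments of RNA per length of transcript and per depth of library) per entry and library, for 24 libraries, and read depth is unknown.

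The chloroplast genome is a small circular DNA that keeps a set of genes from the cyanobacterial ancestor of the organelle. It encodes core proteins of both photosystems, the cytochrome b6f complex, the ATP synthase, the NADH dehydrogenase-like (NDH) complex and the large subunit of Rubisco, along with ribosomal proteins, ribosomal and transfer RNAs and a bacterial-type RNA polymerase. Many of these genes are read as long polycistronic units that are then cut and edited. In roots, most plastids are non-green and make little of the photosynthetic machinery.

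Bacterial-type promoters are known to drive many of the photosynthesis genes. Printed here are 3 stretches that match letters of such promoters, before genes whose entries recur below. Of these genes, trnK and trnV encode tRNAs and share merged entries with protein genes. Capitals mark TTGACA and, after 17 to 19 bases of any letter, TANNNT, the letters searched for. Of 129 windows of 250 bases before annotated chloroplast genes (RefSeq, TAIR10.1), 5 held this pattern on the gene's own strand, or 3.88%, and 6 held it on either strand, or 4.65%. All 3 lie on the minus strand, at ChrC:1530-1559 before psbA, ChrC:4458-4486 before trnK and ChrC:51893-51921 before trnV. A match is a description of letters only, and whether it acts as a promoter was not tested.
psbA: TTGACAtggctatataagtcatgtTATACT
trnK: TTGACAacagtgtatggaccaaaTATAAT
trnV: TTGACAagaaattatctacatgaTAAGAT

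Before any result, 2 facts about libraries apply. Replicate 3 of the clf-28 shoots and of the clf-28 siliques match each other's tissue: the 9 seed genes summed to 47860 FPKM in the first and 288 in the second, against 175 and 378 in the other clf-28 shoots and 43098 and 47712 in the other clf-28 siliques. Both were left out, which gives 22 libraries, and p-values measure the spread between libraries labelled as biological replicates. The sum of 9 root markers was 362 to 388 FPKM in roots and at most 20.1 elsewhere.

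WT replicate 1 stood apart in its chloroplast transcripts in every tissue except shoots, in both directions. In WT roots the summed FPKM of all 94 entries was 6736, 111 and 137 in replicates 1, 2 and 3. In WT inflorescences it was 13268, 437 and 1868, and in WT siliques 1041, 4098 and 4522. In WT shoots it was 2238, 1389 and 4489. Replicate 1 was thus 54.4 times the mean of replicates 2 and 3 in roots, 11.5 times in inflorescences, 0.761 times in shoots and 0.242 times in siliques. It was the highest WT library in roots and inflorescences, the lowest in siliques and the middle one in shoots.

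The clf-28 libraries had sums of 46.8, 164 and 161 in roots, 966 and 1376 in shoots, 313, 855 and 1137 in inflorescences, and 656 and 1398 in siliques. Their spread within a group, highest over lowest, was 3.51-fold in roots, 1.43-fold in shoots, 3.63-fold in inflorescences and 2.13-fold in siliques. Among WT replicates 2 and 3 alone it was 1.23-fold, 3.23-fold, 4.28-fold and 1.10-fold. All 94 entries together made up 0.00482% to 1.15% of a library's summed FPKM.

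**Figure D1:**
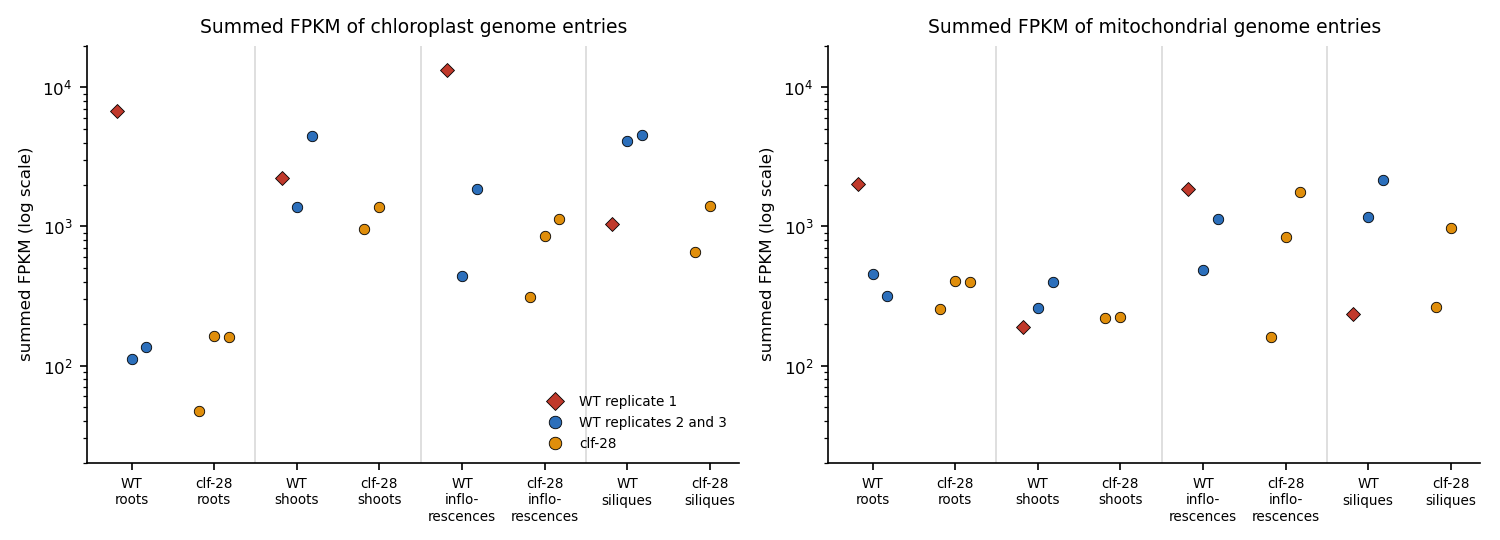
Summed FPKM (log axis) of the 94 chloroplast entries (left) and of the 144 mitochondrial entries (right) in each of 22 libraries, 1 point per library, by group. WT replicate 1, drawn as a diamond, lies at 6736 and 13268 in roots and inflorescences on the left, above all other libraries of those tissues, and below both other WT libraries in siliques.

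Mitochondrial transcripts moved in part with this. The 144 entries with a mitochondrial identifier summed to 2035, 451 and 314 FPKM in WT roots, to 1868, 490 and 1128 in WT inflorescences and to 234, 1178 and 2155 in WT siliques. Replicate 1 was again the highest in the first pair of tissues and the lowest in siliques. In WT shoots the mitochondrial sums were 191, 261 and 400, so replicate 1 was the lowest there, whereas its chloroplast sum was the middle one. The nuclear green-tissue list holds 9 photosynthesis genes, most of them for enzymes of carbon fixation and related steps. The others encode antenna proteins and a photosystem II subunit. This list summed to 883, 431 and 346 FPKM in WT roots, to 11650, 10413 and 9388 in WT inflorescences and to 10948, 32517 and 34978 in WT siliques. In WT shoots it summed to 25915, 29162 and 32481, again lowest in replicate 1. The seed list summed to 10525, 928 and 862 in WT siliques. What part tissue make-up, RNA handling or library preparation has in the replicate 1 values was not tested, and fewer cells of a type and less RNA per cell cannot be told apart in such samples.

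The excess in WT replicate 1 was not even across the chloroplast genome. In roots 13 entries averaged at least 1 FPKM in replicates 2 and 3, and 12 of them were higher in replicate 1 than in both. Among 19311 nuclear entries so chosen, 54.1% were higher than both. The largest ratio was that of rpoA-trnI, which holds the RNA polymerase subunit gene rpoA and a long run of ribosomal protein genes (421-fold), followed by rps14-rps4, with the photosystem I reaction centre genes psaA and psaB (111-fold), and rps12-clpP, with the protease gene clpP (101-fold). The smallest were psbI, a small photosystem II subunit listed at 0 in replicate 1, psbA, the D1 reaction centre protein of photosystem II (9.34-fold), and psbN, a photosystem II assembly factor (11.6-fold).

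The rpoA-trnI entry alone held 50.1% of the chloroplast FPKM of WT roots replicate 1. Its values there were 3372, 5.96 and 10.1 FPKM in replicates 1, 2 and 3, against 3.28, 45.3 and 112 in clf-28 roots. In WT inflorescences they were 3723, 14.1 and 40.2. WT shoots replicate 3 also had a high value, 1046, against 149 and 52.6 in replicates 1 and 2. The separate entry for rpl16, a ribosomal protein of the same run, read 298, 0.431 and 1.18 in WT roots, 527, 2.31 and 3.28 in WT inflorescences and 4.25, 9.76 and 105 in WT shoots. Both entries hold the identifier of rpl16, so how its fragments were shared between them is uncertain.

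In WT inflorescences all 33 entries at 1 FPKM or more in the mean of replicates 2 and 3 were above both in replicate 1, against 45.0% of the 20852 nuclear entries so chosen. The ratios had a median of 9.29 and ran from 1.77, antisense to an unnamed tRNA gene (ArthCt100), 2.83 for psbA and 3.17 for psbM-trnD to 107 for petL-petG (small cytochrome b6f subunits), 137 for rpoA-trnI and 189 for rpl16. The median was 5.87 over 15 photosynthesis entries and 41.0 over 5 entries that hold only RNA polymerase, ribosomal protein and tRNA genes. Those 5 ran from 8.39 for rpl32 to 189, and rpoA-trnI and rpl16 among them share an identifier. In roots rpl32 was at 13.7-fold. These medians describe 1 library per tissue and carry no test.

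In WT siliques the order turned over. Of 38 entries, 37 were below both other WT libraries in replicate 1, against 8008 of 20002 nuclear entries, and the median ratio was 0.255. The exception was psbM-trnD (1.94), followed by psbJ-psbE (0.586) and ndhJ-ndhC (0.581), and psbI and the antisense entries of trnH and of psbK-psbI were listed at 0. In WT shoots 5 of 36 entries were above and 5 below both, with a median of 0.682. Among 18787 nuclear entries there, 6998 were above and 8671 below both. The 3 highest ratios there were petL-petG (40.2), psbM-trnD (2.29) and psbN (1.55), and the 3 lowest were psbI at 0, rpl16 (0.0744) and ndhG-ycf1 (0.237).

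**Figure D2:**
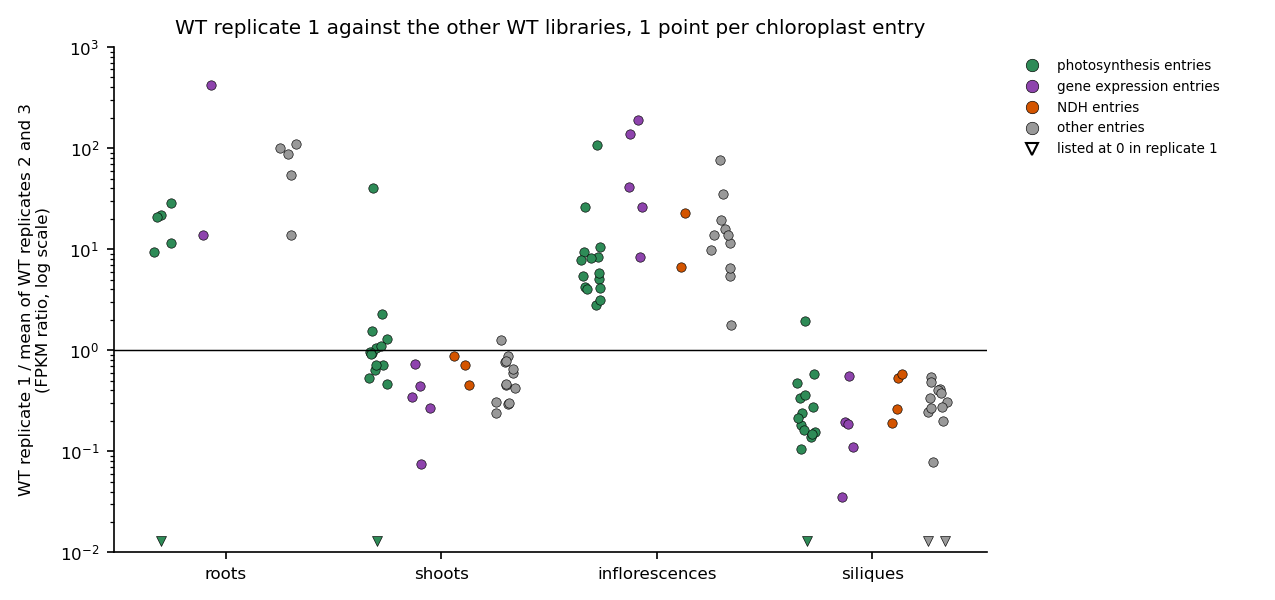
Ratio of WT replicate 1 to the mean of WT replicates 2 and 3 (log axis), 1 point per chloroplast entry with a mean of at least 1 FPKM in replicates 2 and 3, by tissue and kind of gene, and triangles at the bottom mark entries listed at 0 in replicate 1. The points lie above 1 in roots (1 at 0) and in inflorescences, around it in shoots and, with 1 exception at 1.94, below it in siliques. Gene expression entries run from 13.7 to 421 in roots and from 8.39 to 189 in inflorescences.

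Of the 94 entries 45 were listed at 0 in all 24 libraries, 51 never reached 1 FPKM and 43 did so in at least 1 library. A filter of 1 FPKM in at least 3 libraries kept 39 entries over 22 libraries and 37 over 18, the set without the 4 WT replicate 1 libraries. These 4 were set apart by their chloroplast values, which are the values then tested. Calls of chloroplast entries over 18 libraries are thus a description and no independent support. The 4 entries that passed 1 FPKM but not the filter over 22 libraries were ccsA (highest value 4.28 FPKM), the antisense entries of trnC (2.49) and rps16 (1.71), and an entry named ATCG00610 that overlaps no gene of that name (1.27).

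The silent entries clustered in the inverted repeat, the pair of identical copies that chloroplast genomes carry. A search of the TAIR10.1 sequence placed them at 84171 to 109373 and 129325 to 154478. It kept only matches far apart on the genome, so the ends at 109373 and 129325 are limits of the search, not of the repeat. Of 31 entries inside these stretches, 27 were at 0 throughout, and the highest value was 0.318 FPKM. The NDH gene ndhB and the ribosomal protein gene rps7 in both copies, and both entries of the long reading frame ycf2, were at 0. The ribosomal protein gene rpl2 had an entry of its own, at 0, in the second copy only. Its identifier for the first copy is part of the merged rpoA-trnI entry, which had signal. The ribosomal RNA genes rrn16S and rrn23S reached 0.0967 and 0.181 FPKM. Chloroplast ribosomal RNA is abundant in leaves, so these listed values are no measure of those genes, and how the authors treated reads with several places in the genome is not given in the sources used here. Of 36 entries named for tRNA genes alone, 29 were at 0. Among those with signal, only the entries named for trnG and trnL-trnF lay in sense to a tRNA gene. The others were antisense or overlapped no gene of their name.

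Apart from WT replicate 1, the root libraries had the lowest summed chloroplast FPKM, 46.8 to 164 against at least 313 in the other tissues. psbA, whose D1 protein is the most rapidly replaced protein of photosystem II, was at 18.9, 2.70 and 1.34 FPKM in WT roots and 0.565, 1.89 and 1.10 in clf-28 roots. It stood at 121, 112 and 116 in WT shoots and 39.9 and 98.9 in clf-28 shoots. All 5 shoot values were above all 6 root values. In WT inflorescences it was 216, 20.2 and 132, in clf-28 inflorescences 5.91, 34.5 and 62.2, in WT siliques 55.2, 232 and 377, and in clf-28 siliques 15.0 and 177. Without WT replicate 1 the WT means were 305 ± 102 FPKM in siliques, 114 ± 2.28 in shoots, 76.2 ± 79.2 in inflorescences and 2.02 ± 0.960 in roots (SD, n = 2). The ranges of shoots and inflorescences overlapped in that order, while the other neighbours did not overlap.

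rbcL, the large subunit of Rubisco, the enzyme that fixes CO2, followed the same order. It was at 7.86, 0.428 and 0.325 FPKM in WT roots, 0.115, 0.257 and 0.224 in clf-28 roots, 40.9, 24.5 and 38.7 in WT shoots and 9.53 and 17.5 in clf-28 shoots. In inflorescences the values were 168, 7.90 and 32.7 in WT and 2.94, 10.9 and 20.8 in clf-28. In siliques they were 16.4, 142 and 167 in WT and 4.77 and 35.4 in clf-28. WT siliques replicates 2 and 3 were thus above every library but WT inflorescences replicate 1.

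Several short entries had high FPKM. psaJ, a small photosystem I subunit, had the highest FPKM of the chloroplast entries in every shoot library used except WT replicate 3. There rpoA-trnI and rpl32 were higher. psaJ read 416, 347 and 537 FPKM in WT shoots and 261 and 418 in clf-28 shoots. In roots it was 154, 0 and 10.8 in WT and listed at 0 in all 3 clf-28 libraries. The ribosomal protein gene rpl32 had 343, 259 and 682 FPKM in WT shoots, 194 and 214 in clf-28 shoots, 167, 8.89 and 15.5 in WT roots and 19.7, 5.91 and 0 in clf-28 roots. The weakest ribosomal protein entry that passed the filter over 22 libraries was rps16, which reached 12.8 FPKM in WT inflorescences replicate 1 and 8.72 in WT roots replicate 1, and at most 1.53 in the other libraries. FPKM of transcripts shorter than a fragment is poorly determined, and how the short entries were corrected is not given in the sources used here.

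In a merged entry the FPKM is that of several genes together. The psbB-petD entry, with the photosystem II antenna protein psbB and the cytochrome b6f genes petB and petD, read 109, 0.980 and 0.889 FPKM in WT roots, 46.4, 46.4 and 127 in WT shoots, 352, 12.1 and 72.6 in WT inflorescences and 27.9, 151 and 206 in WT siliques. The psbD-psbC entry, the D2 reaction centre protein and an inner antenna protein, read 39.2, 0.707 and 0.459 in WT roots, 26.7, 15.9 and 68.3 in WT shoots, 277, 3.73 and 17.6 in WT inflorescences and 14.1, 65.7 and 65.4 in WT siliques. In both entries WT roots replicate 1 lay inside the WT shoot range and WT inflorescences replicate 1 above every other library.

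atpA-rpoB, which runs from ATP synthase genes (atpA, atpF, atpH, atpI) to the RNA polymerase genes rpoC2, rpoC1 and rpoB, read 144, 3.86 and 1.42 FPKM in WT roots, 119, 75.9 and 235 in WT shoots, 802, 18.5 and 122 in WT inflorescences and 96.4, 237 and 244 in WT siliques. rps14-rps4, with psaA and psaB, read 134.5, 0.915 and 1.51 in WT roots, and 52.9, 26.9 and 57.3 in WT shoots. The NDH subunit ndhF was at 4.66, 0.0405 and 0.0558 in WT roots, at 0.511, 0.273 and 1.52 in WT shoots and at 9.96, 0.105 and 0.393 in WT inflorescences. Among the other genes, accD, a subunit of the enzyme that starts fatty acid synthesis, was at 20.2, 0.197 and 0.150 in WT roots and at 0.449, 0.255 and 0.956 in WT shoots, and ndhG-ycf1, with the protein import gene ycf1, at 154, 0.780 and 0.745 and at 9.73, 5.52 and 76.6. For rps14-rps4, ndhF, accD and ndhG-ycf1 WT roots replicate 1 lay above all shoot libraries.

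The balance between roles moved with library as well. The summed FPKM of the entries with only RNA polymerase, ribosomal protein and tRNA genes, divided by that of the photosynthesis entries, was 3.5, 0.258 and 0.280 in WT roots and 3.38, 3.69 and 4.18 in clf-28 roots. In shoots it was 0.371, 0.403 and 1.17 in WT and 0.488 and 0.293 in clf-28, and in WT inflorescences 1.32, 0.363 and 0.173. WT roots replicate 1 thus lay within the range of the clf-28 roots, and all 6 root ratios leaned on 1 entry each: petL-petG gave 55.9 of 64.5 FPKM of photosynthesis entries in replicate 2, and psbI 70.1 of 98.4 in replicate 3. In clf-28 roots rpl32 gave 19.7 of 24.3 FPKM of gene expression entries in replicate 1, and rpoA-trnI 45.3 of 53.0 in replicate 2 and 112 of 113 in replicate 3, and in WT roots replicate 1 rpoA-trnI gave 3372 of 4114.

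**Figure D3:**
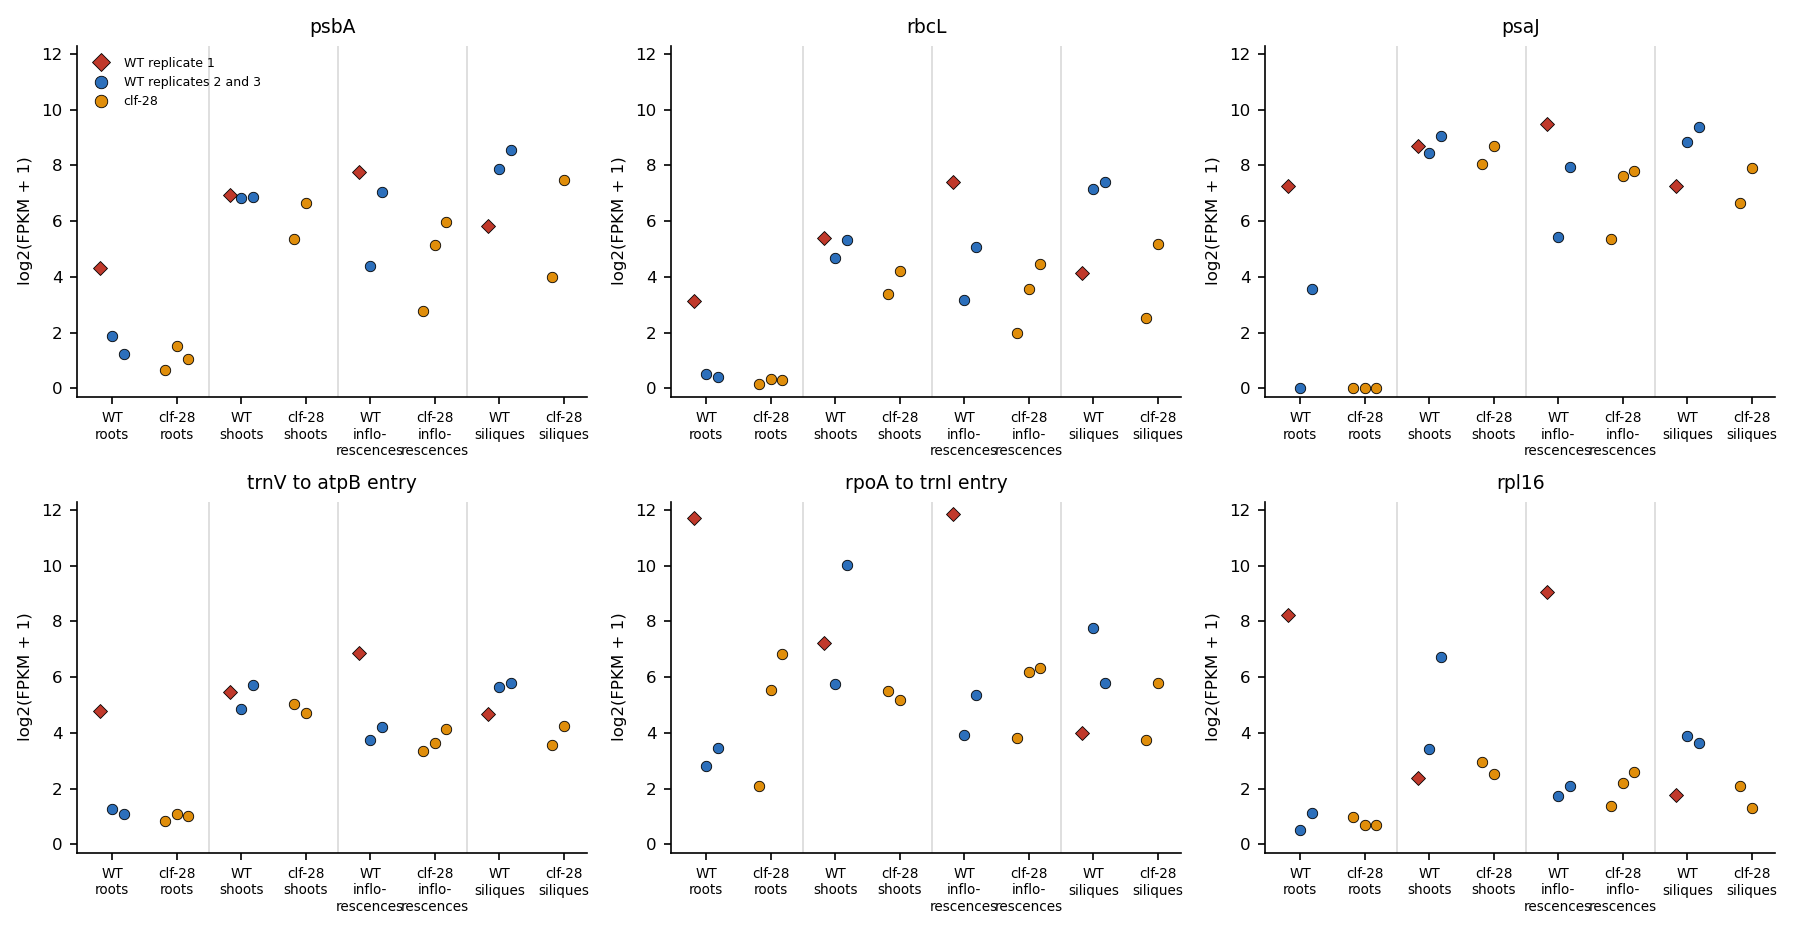
log2(FPKM + 1) of 6 chloroplast entries in each of 22 libraries, 1 point per library, with WT replicate 1 as diamonds. psbA, rbcL, psaJ and trnV-atpB are low in roots, apart from WT replicate 1, and high in shoots and siliques, whereas rpoA-trnI and rpl16 spread widely within WT roots, shoots and inflorescences.

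The shoot and root libraries were compared with 1 limma model over all entries of the table, as the mean of the WT and the clf-28 difference. Over 22 libraries, 19 of 39 chloroplast entries were higher in shoots (adjusted p under 0.05) and 0 were lower, while over all entries tested 26.7% were called higher and 62.3% in either direction. The median log2 difference was 1.82 over the chloroplast entries and -0.05 over all entries. Over 18 libraries 33 of 37 were higher and 0 lower, against 30.7% of all entries called higher and 70.3% called in either direction, with a median of 2.82. The filter kept only entries with signal in some tissue, so these counts are not of all 94.

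The 5 entries with the smallest p over 22 libraries were psaJ (log2 difference 6.75, SE 1.00, limma adjusted p = 1.35e-05), trnC-petN (2.2), psbM-trnD (2.14), psbA (4.66) and trnV-atpB (3.43), each of which encodes a photosystem, cytochrome b6f or ATP synthase subunit. Over 18 libraries these became 7.67, 2.35, 2.18, 5.10 and 4.0. The trnV-atpB entry, with the ATP synthase subunits atpE and atpB, read 26.5, 1.41 and 1.11 FPKM in WT roots and 0.785, 1.13 and 1.04 in clf-28 roots. It was at 43.2, 27.7 and 51.6 in WT shoots and 32.2 and 25.2 in clf-28 shoots. Only WT roots replicate 1 reached into the shoot range.

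By role, 13 of 15 photosynthesis entries were higher in shoots over 22 libraries, and petL-petG and psbI were the exceptions. Among 4 NDH entries 0 were called over 22 libraries and 4 over 18. Of the entries with only RNA polymerase, ribosomal protein and tRNA genes, 1 of 6 was called over 22 (rpl32, 4.5) and 4 of 5 over 18, and rpoA-trnI was not (2.63, SE 1.15, adjusted p = 0.062). Every shoot library was above every root library for 6 of 39 entries over 22 libraries (21.3% of all entries tested) and for 31 of 37 over 18 (25.5%).

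**Figure D4:**
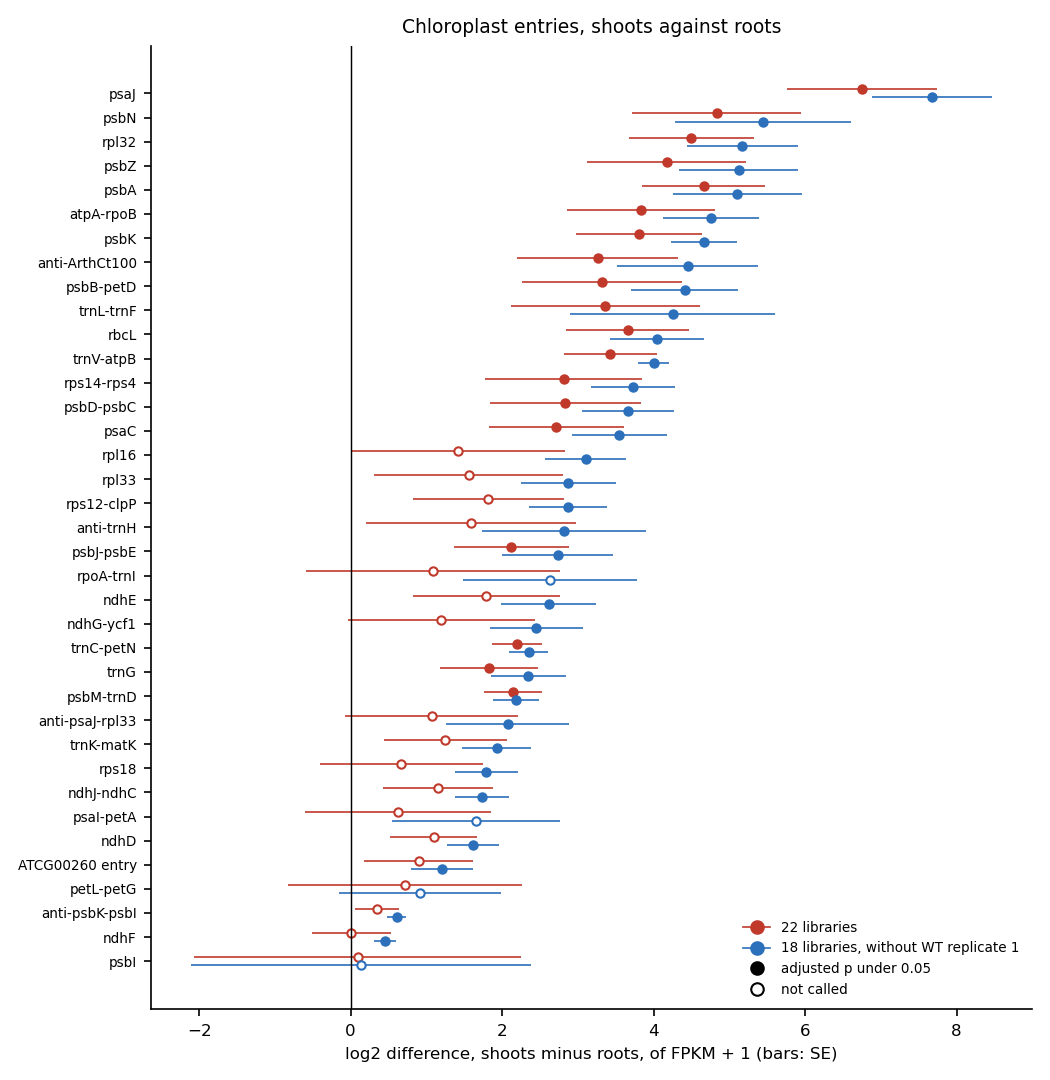
Log2 difference between shoots and roots, with its SE, for the 37 chloroplast entries tested in both sets (accD and rps16, tested over 22 libraries only, are not drawn). All 37 lie above 0 with and without the WT replicate 1 libraries, and filled points, those called, number 19 and 33.

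Shoots and inflorescences differed in 0 of 39 entries over 22 libraries by limma, with 1 at an unadjusted p under 0.05, while 63.1% of all entries were called. Over 18 libraries 4 entries were higher in shoots (30.5% of all entries were, and 73.0% were called in either direction), namely trnC-petN (1.09), ndhJ-ndhC (1.21), trnV-atpB (1.23) and rpl16 (1.92). Against siliques 1 of 39 entries was lower in shoots over 22 libraries, when 33.9% of all entries were lower and 60.9% called (70.3% over 18 libraries). This was psbJ-psbE, with 4 subunits of photosystem II around cytochrome b559. It read 17.7, 11.9 and 25.2 FPKM in WT shoots, 10.3 and 9.48 in clf-28 shoots, 48.5, 49.5 and 116 in WT siliques, and 81.4 and 55.6 in clf-28 siliques. The groups did not overlap (log2 difference -2.25, SE 0.80, adjusted p = 0.023).

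Nuclear genes of plastid transcription were read as a list of 21, of which 20 had an entry of their own. They encode sigma factors, which direct the plastid RNA polymerase, proteins bound to that polymerase, and the organellar phage-type polymerase RPOTmp. In shoots against roots 19 were higher and 1 lower over both 22 and 18 libraries, when 26.7% and 30.7% of all entries were higher and 62.3% and 70.3% were called in either direction. SIG4, a sigma factor, was at 0.389 ± 0.256 FPKM in WT roots and 24.3 ± 2.98 in WT shoots (SD, n = 3), and SIG6 at 3.94 ± 0.192 and 57.2 ± 0.705. RPOTmp was the one lower (-0.54, SE 0.13, limma adjusted p = 0.00103). The summed FPKM of this list in WT replicates 1, 2 and 3 was 116, 110.0 and 109.7 in roots and 557, 497 and 490 in inflorescences. It was 719, 887 and 817 in shoots and 415, 506 and 515 in siliques. Replicate 1 was the highest in roots and inflorescences and the lowest in shoots and siliques.

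Between clf-28 and WT, 0 chloroplast entries were called in any tissue over 22 libraries by limma. At an unadjusted p under 0.05 there were 4 in roots, 0 in shoots, 2 in inflorescences and 2 in siliques. Over all entries the share called was 8.67% in roots, 10.4% in shoots, 3.92% in inflorescences and 28.5% in siliques. The median log2 difference of the 39 chloroplast entries was -1.44, -0.97, -1.80 and -1.45 in that order, against medians of -0.01 to 0.01 over all entries in the first 3 tissues and -0.05 in siliques. Without the 4 WT replicate 1 libraries the medians were 0.00 in roots, -1.11 in shoots, -0.45 in inflorescences and -2.14 in siliques. psbA, for example, differed by -1.39 in roots over 22 libraries and by -0.47 over 18, with adjusted p = 0.568 and 0.869.

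In roots without the 4 WT replicate 1 libraries, the single call was psbK, a small photosystem II subunit, higher in clf-28 (limma adjusted p = 0.03), when 15.6% of all entries were called higher and 25.4% called. Its values were 1.94, 3.58 and 3.31 FPKM in clf-28, and it was listed at 0 in WT replicates 2 and 3 and at 40.5 in replicate 1. The neighbouring psbI was at 0 in all clf-28 root libraries and at 0, 0 and 70.1 in WT, and the table splits these neighbours from 1 locus. A further single-library value was psaI-petA, with the cytochrome f gene petA, at 0.532, 86.8 and 0.535 in clf-28 roots.

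In inflorescences 0 of 37 entries were called without these 4 libraries, with 0 at an unadjusted p under 0.05 by limma, when 26.7% of all entries were called. For rbcL the clf-28 values lay within or below the WT range, with a difference of -0.78 (SE 0.84, adjusted p = 0.552).

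In shoots every clf-28 value was below every WT value for 23 of 39 entries over 22 libraries (21.5% of all entries tested) and for 23 of 37 over 18 (30.3%), and above for 0 in both sets (29.0% and 35.2% of all entries). The calls were fewer: 0 over 22 libraries, and 3 lower and 0 higher over 18, when 11.7% of all entries were lower and 26.9% called. Called lower were rpl16 (-2.33, adjusted p = 0.0481), ndhF, an NDH subunit (-0.62, adjusted p = 0.0471), and the antisense entry of psbK-psbI (-1.12, adjusted p = 0.000618). ndhF was at 0.511, 0.273 and 1.52 FPKM in WT and 0.173 and 0.154 in clf-28. WT shoots replicate 3 was the highest library in most of these entries, for rpl16 with 105 against 4.25 and 9.76, and the clf-28 values were 6.68 and 4.82. Without it 2 entries were called over the remaining 17 libraries, and without WT shoots replicate 2, 9 were. Over 18 libraries ndhF and the antisense entry of psbK-psbI reached 1 FPKM only in WT shoots and WT siliques, and in no clf-28 library. They thus passed the filter only through groups where they were high. Their calls, and their place among the 23 of 37 entries above, are no support for a difference. The nuclear green-tissue list was not lower in clf-28, at 25915, 29162 and 32481 FPKM in WT shoots and 30857 and 69213 in clf-28 shoots.

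In siliques the calls depended on the WT replicate 1 libraries. Without all 4 of them, 19 of 37 entries were lower in clf-28 and 0 higher, when 25.9% of all entries were called lower and 23.4% higher, 49.3% together. With them, 0 of 39 were called, and without WT siliques replicate 1 alone, 4 were. WT replicate 1 was set apart by its chloroplast values, the same values tested here. Its sum in siliques, 1041, lay between the clf-28 sums of 656 and 1398, so leaving it out widens the gap. The 19 calls are therefore no independent support for a difference. The 5 smallest p-values over 18 libraries belonged to the antisense entry of psbK-psbI (-1.16), trnV-atpB (-1.80), ndhF (-1.0), trnC-petN (-1.61) and the entry named for trnG (-3.03). Among them, ndhF and the antisense entry passed the filter only through WT shoots and WT siliques. Both are counted among the 19, and their calls are therefore no support for a difference. rbcL was lower by limma over 18 libraries (-3.42, SE 0.92, adjusted p = 0.0089) and not over 22 (-2.37, adjusted p = 0.164), and psbA was called in neither set (-2.47 over 18, adjusted p = 0.129).

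Calls over 18 libraries in siliques came from all roles but the single entry that overlaps no gene. The limit set by leaving out WT replicate 1 applies to each of these calls. They took in 6 of 15 photosynthesis entries, among them psbZ (-3.68), psbK (-1.98) and the photosystem I iron-sulfur subunit psaC (-2.96). All 4 NDH entries were lower, from -1.0 to -2.76, with the limit on ndhF given above. So were 3 of 5 gene expression entries, rpl33, rps18 and rpl16, from -1.94 to -2.80. Mixed entries that were lower were atpA-rpoB, with ATP synthase and RNA polymerase genes (-2.56), trnK-matK, with the splicing factor matK (-2.64), and rps12-clpP (-2.14). trnV-atpB, as an example, was at 24.4, 49.2 and 54.0 FPKM in WT siliques and at 10.9 and 18.04 in clf-28. psbM-trnD (-0.03) and psbJ-psbE (-0.17) had the smallest negative differences, neither called, and petL-petG had the only positive value (0.44, SE 1.58, adjusted p = 0.857).

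**Figure D5:**
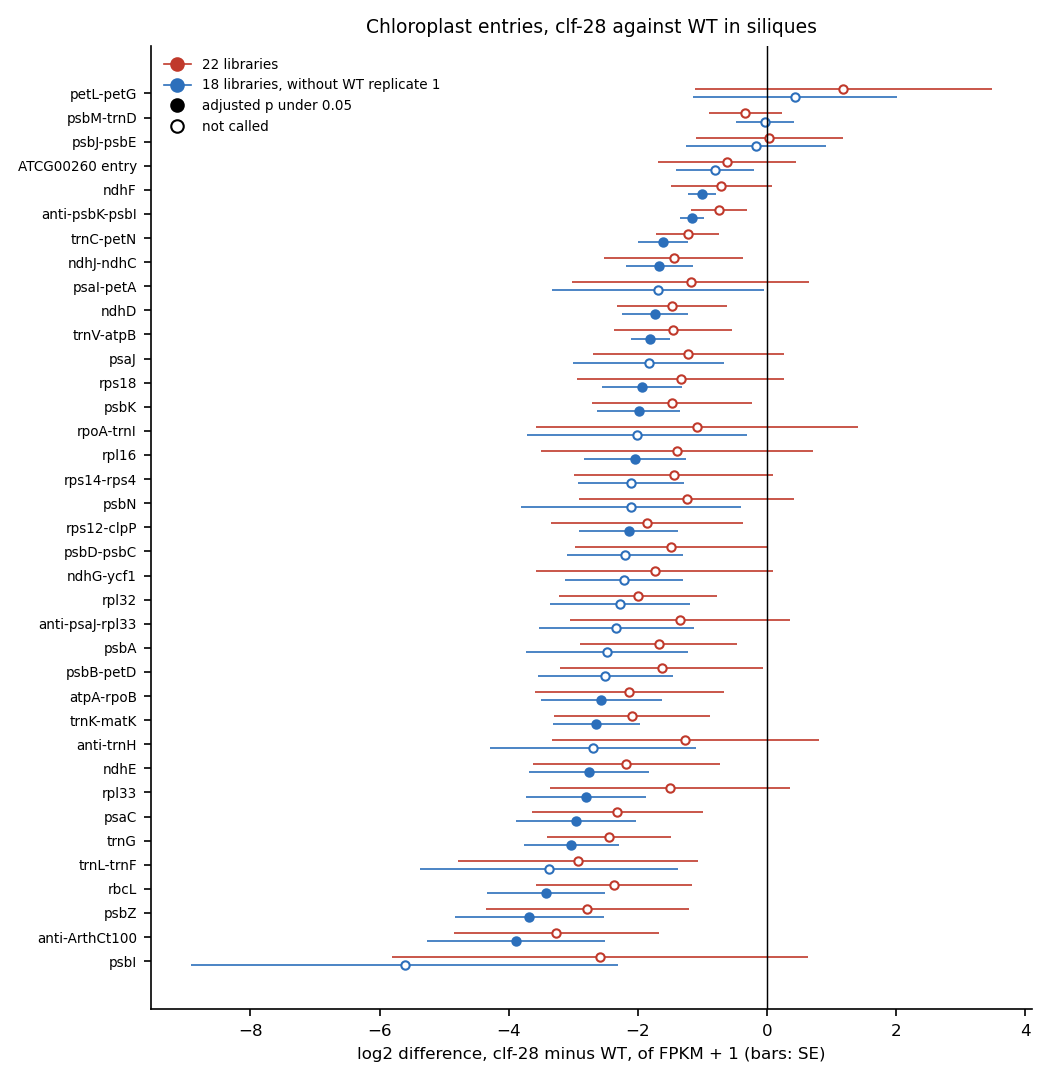
Log2 difference between clf-28 and WT siliques, with its SE, for the 37 chloroplast entries tested in both sets. Over 18 libraries 19 points are filled, all left of 0, and over 22 libraries none is. WT replicate 1, left out of the 18, was set apart by these same chloroplast values.

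For 34 of 37 entries both clf-28 siliques were below WT replicates 2 and 3, against 38.9% of all entries tested. This count leaves out the WT library with the lowest chloroplast sum. It also includes ndhF and the antisense entry of psbK-psbI, which passed the filter only through WT shoots and WT siliques. With WT replicate 1 included, clf-28 was below all WT siliques for 13 of 39 entries, against 29.0%. The count over 18 libraries also rested on single libraries, at 5 without clf-28 siliques replicate 1, 7 without WT replicate 2 and 8 without WT replicate 3. Markers moved with it: the green-tissue list summed to 11116 and 14977 FPKM in clf-28 siliques against 32517 and 34978 in WT replicates 2 and 3, and the seed list to 43098 and 47712 against 928 and 862. WT replicate 1 lay near clf-28 for the green list (10948) and between for the seed list (10525). The part of tissue make-up in the chloroplast values was not tested.

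The nuclear genes of plastid transcription were lower in clf-28 siliques for 12 of 20 over 22 libraries, with a median log2 difference of -0.50 and 0 higher, when 16.3% of all entries were lower. These were SIG1, SIG2, SIG4 and SIG6, and, among polymerase-associated proteins, MURE, FLN1, FLN2, PTAC7, PTAC12, PTAC14, FSD3 and TRXz, the last a thioredoxin (-0.88, limma adjusted p = 0.000212). Over 18 libraries 12 were lower, FSD2 in place of FLN2, and RPOTmp (0.43) and SIG5 (0.81) were higher. Over all entries 25.9% were then lower and 23.4% higher. In roots SIG6 (-0.45) and FSD3 (-0.56) were lower over 22 libraries, in shoots TRXz (-0.49), and in inflorescences 0 were called, when 8.67%, 10.4% and 3.92% of all entries were called. Over 18 libraries 0 were higher and 5 lower in roots, 1 higher and 6 lower in shoots, and 4 higher and 1 lower in inflorescences, when 25.4%, 26.9% and 26.7% of all entries were called. SIG4 had 13.7 ± 1.63 FPKM in WT siliques (SD, n = 3) and 8.57 ± 0.826 in clf-28 siliques (SD, n = 2).

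Whether the difference between clf-28 and WT varied among tissues was tested by the interaction of genotype and tissue. It was called for 0 of 39 entries over 22 libraries by limma, with 0 at an unadjusted p under 0.05, when 26.3% of all entries were called. Over 18 libraries it was called for 5 of 37, when 56.5% of all entries were.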

How the data were processed

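RNA was DNase-treated total RNA made into single-end, strand-specific libraries, per the labels' protocols. Reads were processed with TopHat, Cufflinks and Cuffdiff on TAIR10, per the submitters' processing notes. The authors deposited 1 table of FPKM per entry and library with a status for each value, and 113 values failed and 15 were too deep in 61 entries, none of them chloroplast. A further 48 columns of values were not used. How the FPKM were scaled between libraries is not given in the sources used here.

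Values were taken as log2(FPKM + 1) and fitted with limma 3.58.1 in R 4.3.3, with trended, robust empirical Bayes moderation, over all entries with at least 1 FPKM in 3 libraries (24335 over 22 libraries, 23911 over 18). Fold changes on this scale understate the change of low entries. P-values were Benjamini-Hochberg adjusted over all entries tested and called under 0.05. Tissue comparisons average both genotypes. The members, lists and tests were chosen with earlier results of these data known. Named are fixed standard genes, the 5 called entries of smallest p per direction, the 3 highest and lowest replicate 1 ratios per tissue and all called plastid transcription genes; further genes were chosen after their values were seen.

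Gene names are the standard chloroplast names, checked to lie at the annotated position in TAIR10.1. The strand of an entry was inferred from the order in which entries are listed, and the sense and antisense labels rest on it. Of 39 single-gene chloroplast entries equal to an annotated gene to the base, 38 lay on the annotated strand. So did 99.91% of 29348 single-gene nuclear entries, with identifiers listed on both strands left out. Matching by gene ID found 9 of 11 green, 9 of 10 seed, 9 of 9 root, 8 of 8 inflorescence and 20 of 21 plastid transcription genes. The fit was tested on simulated data. Alternatives were the library set, pseudocount, filter, scaling, replicate block, leaving out failed values, and leaving out each library. Depth is unknown, so no counting interval is given.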

Additional observations from a re-analysis of the deposited data

Results flagged for a closer look

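The difference between clf-28 and WT varied with tissue for 5 chloroplast entries in the interaction test over 18 libraries (limma, Benjamini-Hochberg adjusted). psbK had adjusted p = 0.0138, with log2 differences of -0.18 in shoots, -0.51 in inflorescences and -1.98 in siliques, and in roots the WT libraries used were listed at 0. trnC-petN had adjusted p = 0.0178, with -0.22, 0.63, 0.06 and -1.61 in roots, shoots, inflorescences and siliques. The antisense entry of psbK-psbI had adjusted p = 0.000713, with 0.04, -1.12, 0.03 and -1.16. trnV-atpB had adjusted p = 0.0162, with -0.19, -0.40, -0.27 and -1.80. ndhF had adjusted p = 0.0297, with 0.01, -0.62, -0.12 and -1.0. With the WT replicate 1 libraries in, the adjusted p-values of these 5 were 0.8, 0.143, 0.777, 0.906 and 0.962, and 56.5% of all entries were called over 18 libraries. The count ran from 2 to 11 when 1 more library was left out. Of the 5, ndhF and the antisense entry of psbK-psbI passed the filter over 18 libraries only through WT shoots and WT siliques. These are groups where they were high, so their interaction calls are no support for a difference between tissues.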

How the results depend on the processing

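The set of 18 libraries, planned as an alternative, moved the counts of chloroplast entries called to 1 in roots, 3 in shoots, 19 in siliques, 33 for shoots against roots, 4 for shoots against inflorescences and 5 for the interaction. Leaving out each of the 22 libraries in turn gave 0 to 1 in roots, 0 in shoots, 0 to 1 in inflorescences, 0 to 4 in siliques, 12 to 25 for shoots against roots, 0 to 1 against inflorescences, 0 to 2 against siliques and 0 to 1 for the interaction. The lowest count for shoots against roots, 12, was without clf-28 shoots replicate 2. Chosen after seeing the data, the same from 18 libraries gave 0 to 1, 1 to 9, 0 to 3, 5 to 20, 29 to 34, 4 to 12, 1 to 6 and 2 to 11. Also chosen after seeing the data, siliques over 18 libraries gave 15 and 21 with pseudocounts of 0.1 and 5, 19 with median-of-ratios scaling and 18 with quantile normalization. No filter gave 1 in siliques and 1 against inflorescences, median-of-ratios scaling 1 and quantile normalization 2 against inflorescences. Against siliques quantile normalization gave 3, a pseudocount of 0.1 gave 0 and only the libraries compared gave 2, and only the libraries compared gave 3 in shoots. The log2 ratio of WT replicate 1 to the other WT libraries was 4.86 in roots and -2.17 in siliques without tRNA and rRNA entries, and -2.21 in siliques by median-of-ratios scaling, against 5.77 and -2.05. psbA in siliques turned to 0.06 without clf-28 siliques replicate 1, against -1.67 (-4.21 to -0.74 on leaving out each library from 18). Of 356 alternatives to 19 named results, 294 kept direction and call, 56 gained the call, 5 lost it and 1 turned. The cause of these changes was not tested. Replicate numbers did not pair the samples (correlations of -0.20 to 0.14), and the replicate block gave the same counts, 19 for shoots against roots and 0 in each genotype comparison, with 4.74 for psbA there.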

Other observations

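An entry on the chloroplast genome that carries no gene identifier, and so is not among the 94, read 5.44, 8.67 and 7.48 FPKM in WT shoots and 10.9 and 9.50 in clf-28 shoots. Its values in all libraries ran from 0 to 10.9 FPKM.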
